A study of Homo sapiens with 29 samples.

Results

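Glycolysis turns glucose into pyruvate through a fixed chain of cytosolic enzymes, with hexokinase, phosphofructokinase and pyruvate kinase as its control steps. The PKM pre-mRNA gives the M1 or the M2 form of pyruvate kinase by the choice between mutually exclusive exons, and hnRNPA1, an RNA-binding protein that shuttles between nucleus and cytoplasm, is known, together with hnRNPA2B1 and PTBP1, to repress the M1 exon. The 10 glycolytic enzyme genes described here are HK1 and HK2 (hexokinase), PFKL, PFKM and PFKP (phosphofructokinase), ALDOA (aldolase), GAPDH (glyceraldehyde-3-phosphate dehydrogenase), PGK1 (phosphoglycerate kinase), ENO1 (enolase) and PKM. They were chosen by name, and all 10 were found among the 16382 genes of the siRNA table. In the 3 lists of windows recovered with hnRNPA1 they had 31 of 16198 windows.

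The study used HEK293, a human embryonic kidney cell line. Total RNA was sequenced from 4 samples with control siRNA and 4 with hnRNPA1 siRNA, with no rescue and no other siRNA named in the labels, so an off-target effect of the siRNA and a loss of hnRNPA1 cannot be told apart. In RNA immunoprecipitation (RIP), RNA was recovered with hnRNPA1 antibody or normal IgG from whole-cell lysate (3 and 3 samples), cytosol (4 and 4) or mitochondria (4 and 3), and each compartment has 1 peak list without values of single libraries. The protocols call the RIP RNA degraded and 1 library poor, without saying which. The labels do not say whether samples of 1 group are separate cultures, so every p-value rests on a spread that may be technical. The siRNA libraries held an estimated 1.66e+07 to 2.21e+07 reads. The targeted gene, HNRNPA1, ranged from 18614 to 20403 normalised reads with control siRNA and from 5306 to 7185 with hnRNPA1 siRNA, without overlap, which fits the labels. All 8 HEK293 markers looked for (PAX2, EYA1, NEFL, NEFM, CDH2, VIM, KRT8 and KRT18) were measured, with a summed level of 17027 to 17920 normalised reads in control and 16789 to 18005 in knockdown libraries. Of the markers of other cell types, 3 of 5 for fibroblasts (summed level 105.4 to 122.8 in control and 83.0 to 118.3 in knockdown libraries), 1 of 4 for endothelium (15.9 to 26.6 and 8.65 to 18.7) and 2 of 5 for leukocytes (11.6 to 16.03 and 21.4 to 31.7) were in the table, and PECAM1, CDH5, VWF, PTPRC, CD3E and the 4 of skeletal muscle and 3 of hepatocytes were not among its genes. The leukocyte sum was thus higher in all 4 knockdown than in all 4 control libraries, at a low level, and its part in the results was not tested.

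The sequences under the windows are shown first for the places on which the description of the lists turns. A window is a stretch of 500 bases on 1 strand with the authors' own signal value and q. The highest signal value of any glycolytic enzyme gene, 3.12, belonged to a whole-cell window of ENO1 at chr1:8866501-8867000 (minus strand), which holds the whole hairpin of the microRNA gene MIR6728 inside ENO1 on the same strand. The hairpin (RefSeq, GRCh38.p14, chr1:8866502-8866590) is given 5′ to 3′ with its mature arms in capitals, and the mature forms with the seed (bases 2 to 8) in capitals. The 2 forms have different seeds.
MIR6728: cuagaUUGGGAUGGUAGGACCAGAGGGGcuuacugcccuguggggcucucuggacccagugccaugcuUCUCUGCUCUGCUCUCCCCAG
hsa-miR-6728-5p: uUGGGAUGguaggaccagagggg
hsa-miR-6728-3p: uCUCUGCUcugcucuccccag

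Whole-cell windows also lay over annotated transcription starts of ENO1, GAPDH, HK2 and PFKM, and over the 5′ end of the PKM gene span. The RefSeq start regions (GRCh38.p14, 250 bases before to 50 after a start, coding strand, 5′ to 3′) that lie wholly under such windows are printed with the 50 bases from the start on in capitals. All 10 genes matched the RefSeq table. For HK2 the region spans 2 abutting windows, with 62 bases in the first and 238 in the second. For PFKM it is 1 of the 4 start regions that the window touches. Another HK2 start region, chr2:74833877-74834176, has no window. The first whole-cell windows of HK2, GAPDH and PFKM begin 355, 496 and 287 bases inside the gene span. The PKM region is that of the start in the RefSeq table of start regions, which lies inside the gene span. It falls in the gap between 2 windows, of which the upstream one runs from -438 to 61 bases from the 5′ end of the span and so covers that end.
ENO1 chr1:8878637-8878936 (minus strand): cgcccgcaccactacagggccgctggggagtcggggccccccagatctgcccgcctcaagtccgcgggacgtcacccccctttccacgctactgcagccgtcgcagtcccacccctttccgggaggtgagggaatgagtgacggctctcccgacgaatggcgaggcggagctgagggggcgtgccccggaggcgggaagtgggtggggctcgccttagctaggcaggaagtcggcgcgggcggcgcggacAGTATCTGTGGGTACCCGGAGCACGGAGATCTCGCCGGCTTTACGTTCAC
GAPDH chr12:6535014-6535313 (plus strand): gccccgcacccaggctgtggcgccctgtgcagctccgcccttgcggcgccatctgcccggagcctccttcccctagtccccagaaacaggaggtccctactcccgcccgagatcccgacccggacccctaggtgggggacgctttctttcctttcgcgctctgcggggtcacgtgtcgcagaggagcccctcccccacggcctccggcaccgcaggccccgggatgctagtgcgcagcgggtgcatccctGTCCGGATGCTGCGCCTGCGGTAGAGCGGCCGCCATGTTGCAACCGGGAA
HK2 chr2:74834920-74835219 (plus strand): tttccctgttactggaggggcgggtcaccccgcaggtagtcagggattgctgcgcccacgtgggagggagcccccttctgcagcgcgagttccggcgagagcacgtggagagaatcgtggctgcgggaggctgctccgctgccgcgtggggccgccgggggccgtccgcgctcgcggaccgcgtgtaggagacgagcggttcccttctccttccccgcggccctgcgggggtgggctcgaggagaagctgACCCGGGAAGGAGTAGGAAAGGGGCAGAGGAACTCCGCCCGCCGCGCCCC
PFKM chr12:48105673-48105972 (plus strand): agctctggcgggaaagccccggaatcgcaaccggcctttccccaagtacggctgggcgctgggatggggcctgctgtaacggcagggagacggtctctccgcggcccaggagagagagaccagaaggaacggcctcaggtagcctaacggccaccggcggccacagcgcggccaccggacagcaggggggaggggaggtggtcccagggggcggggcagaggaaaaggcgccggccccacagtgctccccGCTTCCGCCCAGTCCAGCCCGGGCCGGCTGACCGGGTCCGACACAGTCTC
PKM chr15:72231141-72231440 (minus strand): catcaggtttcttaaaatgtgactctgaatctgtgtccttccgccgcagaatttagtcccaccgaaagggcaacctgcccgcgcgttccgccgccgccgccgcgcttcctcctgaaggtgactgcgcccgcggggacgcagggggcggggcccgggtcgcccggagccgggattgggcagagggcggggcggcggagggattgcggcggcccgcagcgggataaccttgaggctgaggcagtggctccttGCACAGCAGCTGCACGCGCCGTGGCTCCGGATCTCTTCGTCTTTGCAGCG
The short motif TAGGG, which in its RNA form belongs to the known binding preference of hnRNPA1, was searched on both strands, with no other motif searched. It was on the coding strand of 18.6% and on the other strand of 18.1% of 34796 RefSeq start regions of this length. Of the 28 start regions of the 10 genes, 5 held it on the coding strand and 5 on the other. None of the 5 regions printed above holds it on the coding strand, and the GAPDH region holds it 3 times on the other. Of each region 250 bases lie before the start and so outside the RNA from that start, and the PKM region lies under no window. The search therefore cannot say whether the recovered RNA holds the motif.

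The first comparison asked whether the glycolytic enzyme mRNAs differed after hnRNPA1 knockdown. None of the 10 passed limma at an adjusted p under 0.05, against 1.65% of the 15267 genes tested (0.675% higher and 0.976% lower), and 2 (HK1 and PFKL) had an unadjusted p under 0.05, where 9.5% of all genes had one on the higher and 9.7% on the lower side. The log2 fold change was above 0 for 9 of the 10, with a median of 0.13, and for 50.8% of all genes tested, with a median of 0.0039. Among the genes in the top 10% of mean level, where 6 of the 10 lie, 47.7% were above 0. Levels are given in normalised reads, a log2 fold change compares log2(value + 1) in knockdown with control, and tests are two-sided. Since each value is relative to its library, a change of the total RNA per cell would not show.

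PKM, which makes pyruvate kinase for the last step, had 14942, 19734, 14683 and 15853 normalised reads with control siRNA (libraries 1 to 4, in this order here and below) and 16391, 20626, 18248 and 15911 with hnRNPA1 siRNA. The groups overlap, and in both the library numbered 2 is the highest. The means were 16303 ± 2342 and 17794 ± 2140 (SD, n = 4 each; log2 fold change 0.13, SE 0.11, limma adjusted p = 0.58). The 95% interval of the log2 fold change ran from -0.12 to 0.38, or from -7.86% to 29.8% relative to control. A value per gene sums the M1 and M2 forms, so the choice between their exons was not measured.

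Hexokinase traps glucose in the cell as glucose 6-phosphate, with HK1 as the widely expressed and HK2 as the more inducible form. HK1 had 1217, 1494, 1503 and 1473 normalised reads with control siRNA and 1517, 1737, 1739 and 1594 with hnRNPA1 siRNA. It was the 1 gene of the 10 whose groups did not overlap, and among all genes tested 5.69% had every knockdown library above every control library and 5.95% had every one below. Its gap was narrow, with a mean of 1422 ± 137 against 1647 ± 110 (SD, n = 4 each; log2 fold change 0.21, SE 0.08, limma adjusted p = 0.19). HK2 ranged from 314.9 to 517.1 in control and from 403.4 to 533.7 in knockdown libraries, so its groups overlap. Its log2 fold change was 0.19 (SE 0.14, limma adjusted p = 0.48). HK2 has the fewest reads of the 10, and counting alone gives a relative error of 3.99% to 5.59% per library, under the spread of 20.5% (control) and 11.8% (knockdown) between libraries.

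Phosphofructokinase commits sugar to glycolysis, and its tetramers are built from the liver (PFKL), muscle (PFKM) and platelet (PFKP) subunits. PFKL had 1187, 1397, 1409 and 1534 normalised reads with control siRNA and 1324, 1848, 1648 and 1927 with hnRNPA1 siRNA. Knockdown libraries 2, 3 and 4 lie above all control libraries, while knockdown library 1 lies within their range. With a log2 fold change of 0.28 (SE 0.11, limma adjusted p = 0.20) it had the largest value of the 10 without passing. PFKP ranged from 1593 to 2076 with control and from 1773 to 2298 with hnRNPA1 siRNA, a log2 fold change of 0.20 (SE 0.10; adjusted p = 0.30 in limma). PFKM was the 1 gene of the 10 with a value below 0, a log2 fold change of -0.03 (SE 0.10; adjusted p = 0.89 in limma) from means of 1074 ± 125 and 1051 ± 131 (SD, n = 4 each). This sign flipped in 3 of the fits that leave out 1 library.

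Within a library the 3 phosphofructokinase genes can be set against each other without regard to the scaling between libraries. The share of PFKM in their summed normalised reads was 26.3, 26.6, 23.3 and 23.6% with control siRNA and 23.0, 22.7, 22.4 and 18.7% with hnRNPA1 siRNA. All 4 knockdown shares were thus below all 4 control shares, by a narrow gap (23.0% against 23.3%). Control libraries 1 and 2 (26.3 and 26.6%) lay above control libraries 3 and 4 (23.3 and 23.6%), which were close to the knockdown range. Whether this split between library numbers bears on the separation was not tested. The mean share was 24.9 ± 1.72% and 21.7 ± 1.99% (SD, n = 4 each). This difference of -3.23 percentage points was -2.24 without knockdown library 4. How often shares separate in this way in other gene families was not counted. PFKL took 32.1 ± 2.05% and 34.6 ± 1.88%, and PFKP 43.0 ± 0.901% and 43.7 ± 0.582% (SD, n = 4 each), both with overlap. The share of HK1 in the hexokinase pair averaged 77.1 ± 2.31% with control siRNA and 77.3 ± 2.19% with hnRNPA1 siRNA (SD, n = 4 each). These shares count reads, not molecules, since transcript lengths were not used, and no test was made on them.

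**Figure D1:**
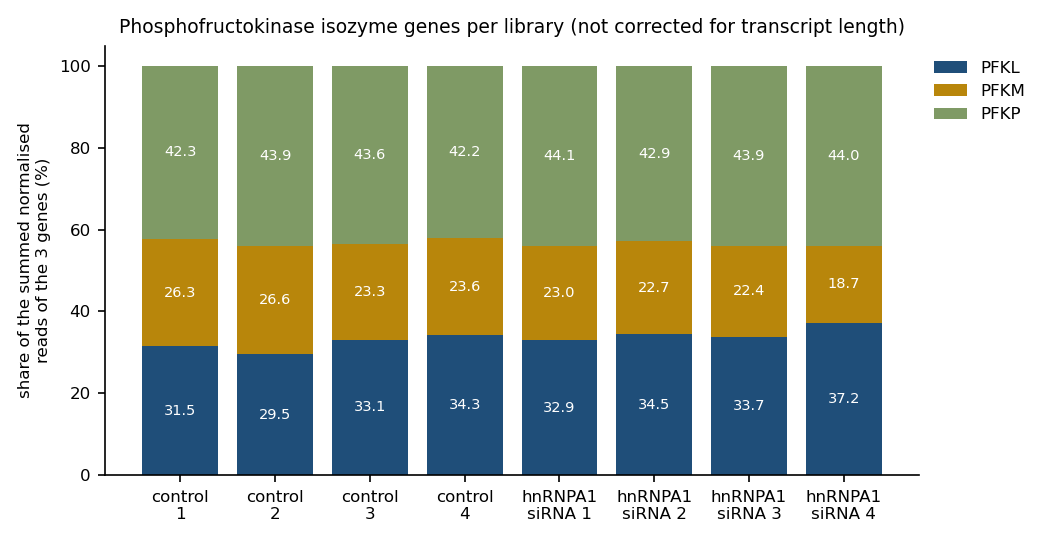
Share of PFKL, PFKM and PFKP in their summed normalised reads (vertical axis, percent) in each of the 8 siRNA libraries, with the share written in each segment. The PFKM segment is 23.3% to 26.6% in the control and 18.7% to 23.0% in the knockdown libraries.

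ALDOA, GAPDH, PGK1 and ENO1, which act between phosphofructokinase and pyruvate kinase, had log2 fold changes of 0.02 to 0.14. Among other enzymes of these steps, TPI1 had 0.0059 (limma adjusted p = 0.98) and PGAM1 -0.088 (limma adjusted p = 0.66). ALDOA, which splits fructose 1,6-bisphosphate, ranged from 7269 to 8242 normalised reads in control and from 6871 to 8229 in knockdown libraries (log2 fold change 0.02, limma adjusted p = 0.91). GAPDH, which makes the first NADH of the pathway and often serves as a reference gene, ranged from 28705 to 37690 and from 30677 to 37350 (log2 fold change 0.03, limma adjusted p = 0.90). The signs of ALDOA and GAPDH flipped in 1 and 2 of the fits that leave out 1 library. PGK1, which makes the first ATP, ranged from 9784 to 12539 and from 10204 to 13351 (log2 fold change 0.09, limma adjusted p = 0.68). ENO1, which makes phosphoenolpyruvate, had 22136, 29210, 21265 and 23263 with control siRNA and 24396, 30471, 27159 and 23081 with hnRNPA1 siRNA (log2 fold change 0.14, SE 0.12, limma adjusted p = 0.58). For these 4 genes and PKM the 95% intervals of the difference reach from -13.8% (GAPDH) to 31.9% (ENO1), and differences within them remain possible. Reads of GAPDH and PGK1 could in part come from processed copies: 4 GAPDH copies and 1 PGK1 copy are in the table, with means of 5.88 to 57.9 normalised reads.

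**Figure D2:**
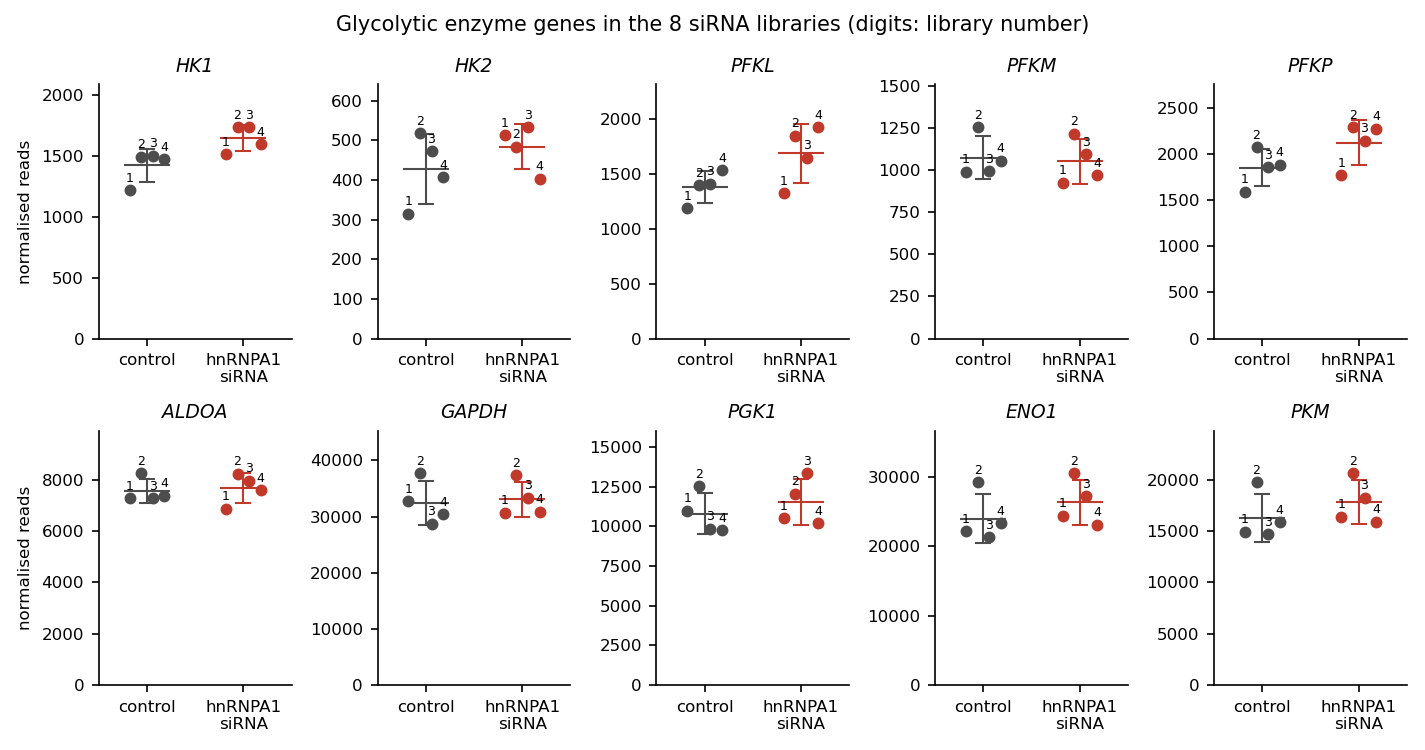
Normalised reads (vertical axis, from 0) of each gene in the 4 control siRNA and 4 hnRNPA1 siRNA libraries; digits are library numbers, the bar is the mean and the whiskers are 1 SD. Groups overlap in 9 of the 10 panels, and HK1 is the exception.

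**Figure D3:**
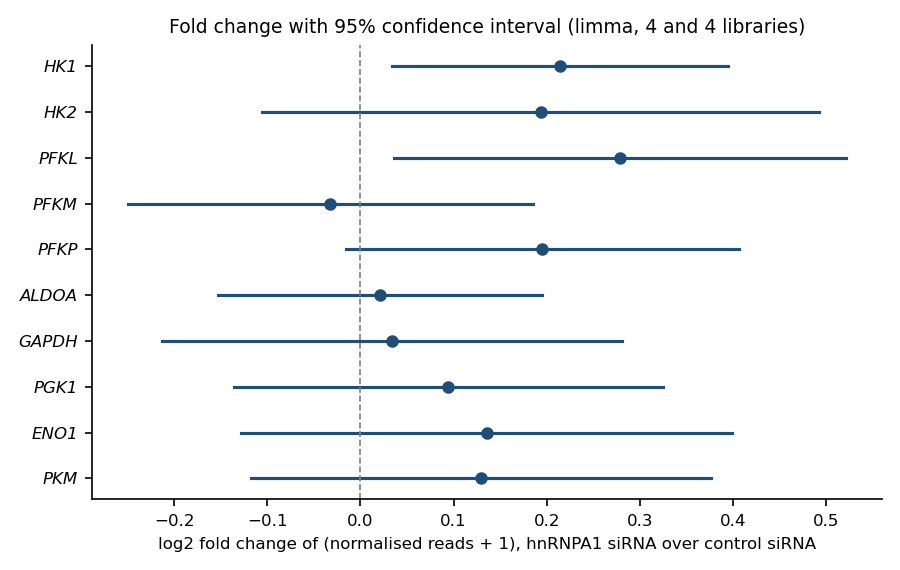
Log2 fold change of (normalised reads + 1), hnRNPA1 siRNA over control siRNA (horizontal axis), with its 95% confidence interval from limma for each gene. The values run from -0.03 (PFKM) to 0.28 (PFKL), and none passed after adjustment over all genes tested.

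Several of the 10 genes were high in the same libraries. Relative to each gene's own mean, the median of the 10 genes on the log2 scale was -0.18, 0.19, -0.10 and -0.08 with control siRNA and -0.08, 0.20, 0.12 and -0.08 with hnRNPA1 siRNA. In control library 2 and knockdown libraries 2 and 3, 8, 10 and 10 of the 10 genes were above their own mean, and in the other libraries 1 to 3 of the 10. Estimated depth did not follow this order, with 1.84e+07, 2.04e+07 and 2.21e+07 reads in those 3 libraries and 1.66e+07 to 2.13e+07 in the others. Over the 8 libraries, which share their normalisation, the gene most like PKM among 7633 other tested genes above the median level was ENO1 (Pearson r = 0.997, Spearman rho = 0.976, and r = 0.993 without control library 2 and knockdown library 2, the libraries farthest from the PKM median). UBL4A (r = 0.954), PSME3 (0.950), BCAP31 (0.948) and AP2M1 (0.945) came next. GAPDH had r = 0.896 and rank 52, and PFKL the lowest r of the 10 genes, 0.42. Without the same libraries as above, r fell to 0.603 for GAPDH and to 0.814 for UBL4A. For HK1 it rose from 0.621 to 0.736. These r are descriptions of 8 libraries, and the top 5 were picked for their r.

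Other genes of sugar metabolism were read in the same fit. Of 12 tested other glycolytic enzymes none passed, with a median log2 fold change of 0.05; the smallest p-values belonged to GPI, which makes fructose 6-phosphate (8171 ± 570 and 9464 ± 474 normalised reads, SD, n = 4 each; log2 fold change 0.21, limma adjusted p = 0.17), and PGAM5, a mitochondrial phosphatase of the mutase family (log2 fold change 0.16, limma adjusted p = 0.25). None of 8 genes of glucose and lactate transport passed. SLC2A1, the glucose transporter GLUT1, stood at 624.4 ± 74.5 and 757.3 ± 36.0 normalised reads (SD, n = 4 each; log2 fold change 0.28, limma adjusted p = 0.12). None passed among 11 regulators of glycolysis (median -0.05), where PDK4 (-0.33, limma adjusted p = 0.26) and PFKFB4 (-0.44, limma adjusted p = 0.27) had the smallest p. None passed among 8 pentose phosphate genes, with PGD, which yields NADPH, at 0.28 (limma adjusted p = 0.084), or among 3 tested gluconeogenesis genes, with the glucose 6-phosphatase G6PC3 at 0.31 (limma adjusted p = 0.10). Of 6 factors that act on PKM splicing, HNRNPA1, the target of the siRNA, fell (log2 fold change -1.61, SE 0.09, limma adjusted p = 2.2e-06). HNRNPA2B1 had 14078, 14917, 17077 and 17799 normalised reads with control siRNA and 24659, 18040, 27813 and 20140 with hnRNPA1 siRNA. Its groups did not overlap, by a narrow gap (17799 against 18040), as in 5.69% of all genes tested on the higher side. It did not pass (log2 fold change 0.49, limma adjusted p = 0.078). PTBP1 (0.05, limma adjusted p = 0.83), SRSF3 (0.03, limma adjusted p = 0.86), RBM4 (0.01, limma adjusted p = 0.95) and NEK2 (-0.16, limma adjusted p = 0.27) did not pass either.

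The second comparison asked which glycolytic enzyme RNAs were listed as recovered with hnRNPA1 in each compartment. In the whole-cell list 7 of the 10 genes had at least 1 window, against 39.2% of the genes tested in the knockdown. Highly expressed genes have windows more often: in the top 10% of mean level 80.2% of 1527 genes had one, as did 4 of the 6 glycolytic enzyme genes there. In the cytosolic list none of the 10 had a window, against 5.17% of genes tested and 11.7% of the top 10%. In the mitochondrial list 5 of the 10 had a window, against 6.39% of genes tested and 25.2% of the top 10%, where it was 4 of 6. At q of at most 0.005 the counts were 4 (31.7% of genes tested), 0 (2.29%) and 3 (3.9%) for whole cell, cytosol and mitochondria. With a signal value above the list's median they were 4 (26.2%), 0 (2.39%) and 0 (3.59%). Within the top 10% of mean level, 2 of the 6 genes had a whole-cell window under either stricter rule. Of all genes there, 72.7% had one at the stricter q and 59.6% above the median. In the mitochondrial list it was 3 of 6 against 17.6% at the stricter q and 0 of 6 against 14.01% above the median. The 3 rules cut the same lists and 6 genes are few, so no share of the 6 is called lower or higher. Their mean levels ran from percentile 91.2 (PFKP) to 99.9 (GAPDH), so the whole top 10% is not matched to them in level. Gene length was not taken into account. With 1 list per compartment there is no replicate and no test, and a window does not show direct binding. Lists differ in length, with 13007, 1519 and 1672 windows, and the part of list length in these counts was not tested.

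PKM had 8 windows in the whole-cell list, on the minus strand like the gene, and ENO1 also had 8. In all, 61 of 6967 genes in that list (0.876%) had 8 or more. The first 2 PKM windows were centred at -0.189 and 0.812 kb from the 5′ end of the 32.6 kb RefSeq span, on either side of the start region printed above. The second of them, chr15:72230530-72231029, had the highest signal value of PKM in this list, 1.79, above 86.4% of all whole-cell windows or equal to them. One more lay 8.31 kb into the gene (signal value 1.09). The other 5 were spread over the 3′ part of the gene, centred 21.3, 25.3, 28.3, 29.8 and 30.8 kb from the 5′ end, with signal values of 1.30, 1.18, 1.34, 1.55 and 1.26. The strongest of these 5 was chr15:72201530-72202029 (q = 2.5e-07), and the window before it was chr15:72203030-72203529 (q = 0.0016). Exon coordinates were not used here, so none of the windows was assigned to the M1 or M2 exon or to an intron. From 8561 to 21062 bases from the 5′ end PKM had no whole-cell window.

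In the mitochondrial list PKM had 1 window, chr15:72222530-72223029, centred 8.81 kb from the 5′ end (signal value 1.07, q = 0.0053). It abuts the whole-cell window at 8.31 kb with 0 bases between them. No window of any of the 10 genes was shared between the whole-cell and mitochondrial lists. In those with windows in both lists, the windows followed the same steps along the gene. Sharing would thus require the identical window, and an abutting window counts as not shared. How often windows of all genes are shared between these lists was not counted, so the absence is not called particular to these genes.

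**Figure D4:**
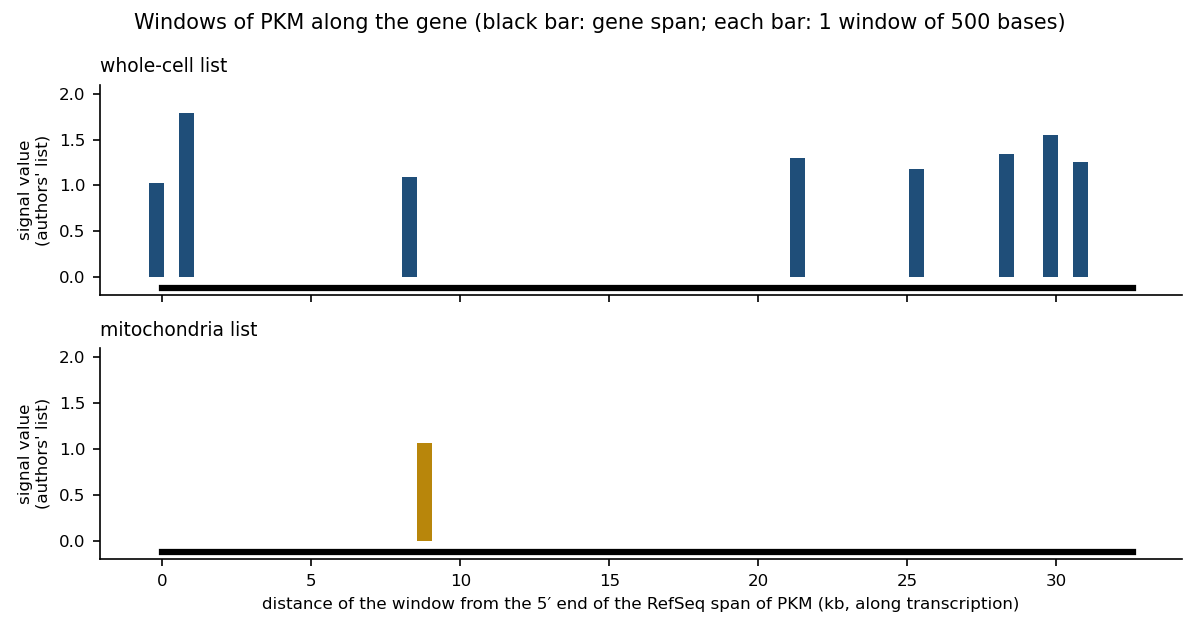
Signal value of each PKM window in the authors' whole-cell list (upper panel) and mitochondrial list (lower panel) against its distance in kb from the 5′ end of the RefSeq gene span, drawn as a black bar. The 8 whole-cell windows fall at the 5′ end, at 8.31 kb and from 21.3 kb on, and the mitochondrial window lies at 8.81 kb.

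ENO1 had its 8 whole-cell windows in 2 stretches. Windows centred at -0.565 and -0.0645 kb from the RefSeq 5′ end had signal values of 1.52 and 1.16. The second covers the start region printed above, and both overlap ENO1-AS1, an antisense RNA gene on the other strand. The rest lay between 10.9 and 16.9 kb of the 17.7 kb span. Among them the MIR6728 window ranked 104 of 13007 in the list and has q listed at 0, while its neighbours on the 5′ side had 1.25 and 1.36 and those farther 3′ 0.79, 0.91 and 0.97. In the whole-cell list 17 windows hold a whole RefSeq hairpin on their strand. Their median signal value was 1.46 against 1.22 for all windows, and that of MIR6728 was the highest of the 17. Whether the hairpin or the ENO1 transcript around it was recovered cannot be told apart.

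PFKM had the next highest signal value, 2.62 (rank 276 of 13007, q listed at 0), in a window at its 5′ end, chr12:48105640-48106139. It shares 440 bases with SENP1, which starts there on the other strand. Its mitochondrial window, chr12:48145640-48146139 (signal value 1.18, q = 0.023), lies 39.5 kb away, with its centre 0.516 kb from the 3′ end. HK2 had whole-cell windows at both ends of its 59.2 kb span, centred 0.605 and 1.10 kb from the 5′ end (signal values 1.18 and 0.85) and 0.129 kb from the 3′ end (1.47). HK1 had 1, centred 0.649 kb from the 3′ end of a span of 131.9 kb (0.91). The short genes ALDOA (6.14 kb) and GAPDH (3.86 kb) had 3 and 2 whole-cell windows, with signal values of 1.03 to 1.09 and of 1.00 and 0.77, below the list's median. The ALDOA windows also lie in the RefSeq gene LOC112694756 on the same strand, so the source of their reads cannot be told apart. PFKL and PFKP had no window in any list, and PGK1 had none outside the mitochondrial list.

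The mitochondrial windows of ALDOA, GAPDH, PFKM and PGK1 all lay between 88.8% and 98.7% of the gene span. Their centres were 0.507, 0.11, 0.516 and 2.81 kb from the 3′ end, and PKM was the exception. Of the 5 mitochondrial windows, 3 were centred within 1.5 kb of the 3′ end, against 28.0% of the 1214 windows of tested protein-coding genes in that list. Of the 26 whole-cell windows 3 were, against 24.8% of 10344, and 8 were within 1.5 kb of the 5′ end or before it, against 23.7%. GAPDH and ALDOA span only 3.86 and 6.14 kb, so 1.5 kb is a large part of these genes. None of the 5 mitochondrial signal values (0.88 to 1.21) was above that list's median of 1.25. GAPDH had the smallest q of the 5 (2.1e-09; chr12:6538013-6538512), and the PGK1 window, chrX:78126240-78126739, had q = 3.8e-05.

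**Figure D5:**
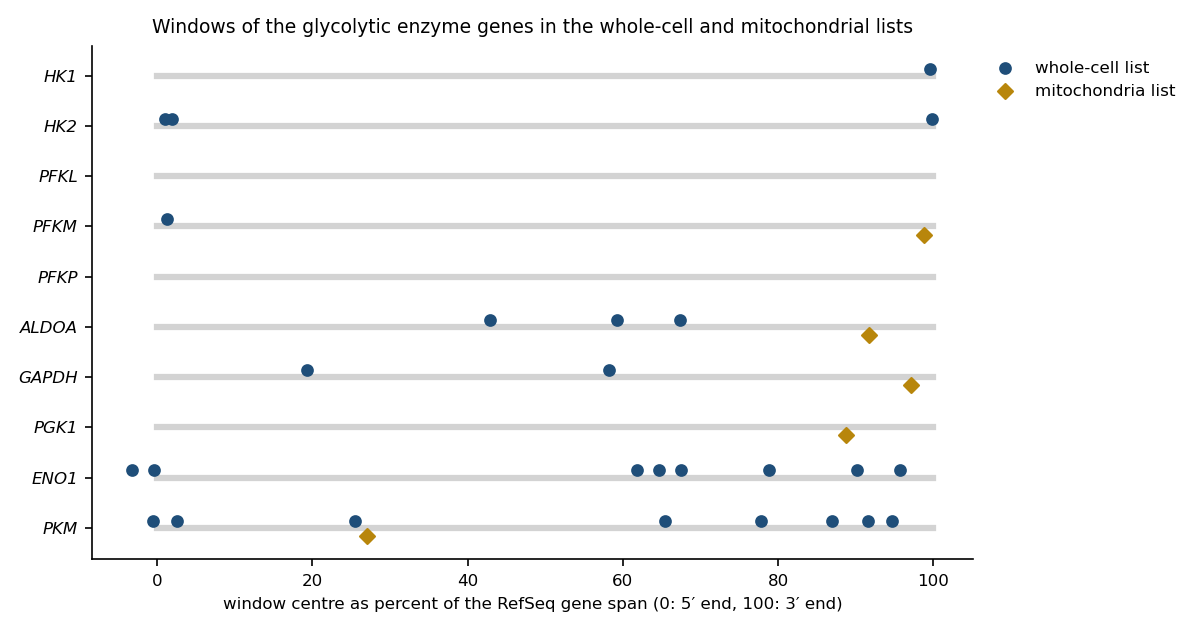
Centre of each window as a percent of the RefSeq gene span (horizontal axis, 0 at the 5′ end and 100 at the 3′ end) for the 10 genes, with whole-cell windows as circles and mitochondrial windows as diamonds. Mitochondrial windows of 4 genes lie between 88.8% and 98.7% of the span and that of PKM at 27.1%, and PFKL and PFKP have none.

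Other genes of the pathway had windows as well. In the whole-cell list these were 5 of the 12 tested other glycolytic enzymes (41.7%, near the 39.2% of all genes tested), among them LDHA, the lactate dehydrogenase A gene, with 4 windows and a highest signal value of 2.12. In the mitochondrial list they were 3 of the 12 (6.39% of all genes tested had a window there): GPI (3 windows, highest 1.90), ENO3 (1.95) and PGAM5 (1.15). In the cytosolic list it was LDHB alone (1.19). ENO3 was low in the siRNA libraries, with means of 26.2 (control siRNA) and 22.1 (hnRNPA1 siRNA). Of 8 transport genes 3 had whole-cell windows: SLC16A1 and SLC16A3, which encode lactate transporters, with 2 each and the glucose transporter gene SLC2A3 with 1. SLC16A3 also had 1 cytosolic and 4 mitochondrial windows (highest signal value 1.98), and SLC16A1 2 mitochondrial ones. So 2 of the 8 transport genes were in the mitochondrial list. SLC16A3 was near the minimum of 10 for the fit, with means of 9.27 (control siRNA) and 13.2 (hnRNPA1 siRNA). Whether its low level bears on its windows was not tested. Of 11 regulators, 6 had whole-cell windows (PFKFB2, TIGAR, HIF1A, MYC, PDK1 and PDK3) and none had cytosolic or mitochondrial ones. Of 8 pentose phosphate genes RPE alone had a window, in the whole-cell list, and none of the 3 gluconeogenesis genes had one in any list. Of the 6 PKM splicing factors, 5 had whole-cell windows (5 in HNRNPA2B1, 4 in SRSF3, 3 in HNRNPA1, 2 in RBM4 and 1 in PTBP1) and HNRNPA1 and HNRNPA2B1 had mitochondrial ones.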

How the data were processed

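Gene values of the 8 siRNA libraries are a signal that the authors deposited: reads per gene scaled by 1 factor per library, from the values. STAR 2.7.8a, Partek, DESeq2 and hg38 are named, without a role, in the submitters' processing notes. In each library 83.5% to 84.7% of values under 300 were whole multiples of 1 step (tolerance 0.02), so no count test was run; dividing by the step gave estimated reads. The table, with 16384 lines, may be cut at its end. The authors deposited peak lists with a score (signal value) and q-value per window of 500 bases; for the score's scale, the build and the depth of the RIP libraries nothing is given in the sources used here. Window starts lay at whole multiples of 500 bases from the RefSeq GRCh38.p14 gene start in 41.1% of 6964 genes (2 of the 8 glycolytic enzyme genes with a window), where unrelated starts would give 0.2%, so positions were read on that build, written 1-based.

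limma 3.58.1 in R 4.3.3 was run with a variance trend on log2(value + 1), unpaired, over 15267 genes with at least 10 in at least 4 libraries, with Benjamini-Hochberg adjustment; this minimum was taken from earlier work on these data. The design foresaw limma for a normalised table and a count test for raw reads, and the first applied. On simulated data over 15267 genes the fit called 90 of 100 genes planted at 1.5-fold and 100 of 100 at 2-fold, and 9 others. The simulated noise was independent between genes and libraries, with a spread set by mean level alone, and no change was planted in genes of the lowest level. These rates may therefore not hold for the real libraries. Members, lists and the naming rule (all 10 genes, HNRNPA1, per list the genes that passed in a fit or the 2 with the smallest p, those with a window, and the 5 most like PKM) were chosen with earlier results of these data known. TPI1 was named in addition, as an enzyme between aldolase and enolase. Alternatives were other pseudocounts, filters, scalings, thresholds, a replicate block and each library left out. Figures were drawn with matplotlib 3.10.9.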

Additional observations from a re-analysis of the deposited data

Results flagged for a closer look

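In 32 groups of 4 values, 4 values stood apart from the other 3 by a gap past Dixon's 95% limit; chance flags about 1 in 20 groups. HK1 in control library 1, at 1217 normalised reads, lay below the other control libraries (1473 to 1503). ALDOA in control library 2, at 8242 normalised reads, lay above the others (7269 to 7377). The PFKM share of phosphofructokinase reads in knockdown library 4, 18.7%, lay below the others (22.4% to 23.0%). The PFKP share in knockdown library 2, 42.9%, lay below the others (43.9% to 44.1%).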

How the results depend on the processing

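None of the 10 glycolytic enzyme genes was called in any alternative but the replicate block, in which 1 was, PFKL (limma adjusted p = 0.023). SLC2A1 (adjusted p = 0.028), PGD (0.032), G6PC3 (0.023) and HNRNPA2B1 (0.023) also passed in limma with the block. With it 1191 of 15267 genes (7.8%) passed in place of 252. Same-numbered libraries deviated together with r of 0.119, 0.292, 0.0431 and 0.234, and control library 3 resembled knockdown library 4 more than 3, so the numbers were not taken as pairs. The count over all genes was 90 with totals without mitochondrially encoded genes, 48 without the variance trend and 48 at an adjusted p under 0.01. With 1 library left out it ran from 61 to 254. Control libraries 1 to 4 each moved it over 1.5 times when left out (to 73, 138, 156 and 61), as did knockdown libraries 2 (74) and 3 (69). Of 150 recomputed log2 fold changes of the 10 genes, 6 changed sign, all with 1 library left out: PFKM ran from -0.105 to 0.045, ALDOA from -0.014 to 0.072 and GAPDH from -0.026 to 0.109. With 1 library left out, HK2 ran from 0.055 to 0.29, PGK1 from 0.021 to 0.17, PKM from 0.055 (without knockdown library 2) to 0.22 (without control library 2), ENO1 from 0.062 to 0.23 (the same libraries), PFKP from 0.12 to 0.28 and HK1 from 0.14 to 0.25, none of them called. The isozyme shares moved by less than 1 SD. At q of at most 0.005, 4 genes had a whole-cell and 3 a mitochondrial window; above each list's median signal value it was 4 and 0.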
